A study of Mus musculus with 6 samples.

Results

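The miRNAs described here lie in the first part of the maternally expressed miRNA cluster of the imprinted Dlk1-Dio3 domain of mouse chromosome 12, from Meg3 to Rian and shortly beyond. Members were all mature miRNA features of the count tables between positions 109563710 and 109682228 (GRCm38), 38 rows in all. The minus-strand rows at 4 places hold the reads of the plus-strand row and were not counted again, which left 34 places on 18 plus-strand hairpins out of 1995 miRNA places and 109108 features in the files.

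Small RNA of the hippocampus was sequenced from mice of the C57BL/6 strain, aged 3 months and male per the design text, that were all homozygous for floxed Dicer1 (Dicer1 flox/flox) and had all been given tamoxifen 3 weeks ahead of dissection. The 3 WT libraries came from mice without a Cre transgene. The 3 Dicer1-ifKO libraries came from mice that also carried CaMKIIa-creERT2, a tamoxifen-inducible Cre driven by a promoter of excitatory forebrain neurons, so the tissue also holds cells in which that promoter is not active. Each library was RNA pooled from 3 mice, 9 per genotype, although the design text gives a larger number of mice, and p-values measure the spread between pools. In whole tissue, fewer cells of a type and less RNA per cell cannot be told apart.

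On the maternal chromosome of this domain the long noncoding RNAs Meg3, anti-Rtl1 and Rian are transcribed in the same direction, and miRNA hairpins are cut out of them by Drosha. On the paternal chromosome Dlk1, Rtl1 and Dio3 are expressed, and Rtl1 is a retrotransposon-derived gene whose mRNA is matched base for base by the miRNAs of its antisense transcript. Dicer cuts the exported hairpin into a duplex, of which the 5p or the 3p strand is retained in an Argonaute protein while the other is usually lost. The cluster is strongly expressed in brain.

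The sequences printed here are those of the members that fell, of the arms opposite miR-540-3p and miR-431-5p, and of miR-434-3p and miR-136-5p, which did not pass. They are RefSeq mature sequences (GRCm38.p6), 5′ to 3′, with the seed (bases 2 to 8) in capitals.
miR-770-3p: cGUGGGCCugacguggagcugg
miR-673-5p: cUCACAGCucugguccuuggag
miR-540-5p: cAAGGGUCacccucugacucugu
miR-540-3p: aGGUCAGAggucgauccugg
miR-665-3p: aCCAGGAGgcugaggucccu
miR-431-5p: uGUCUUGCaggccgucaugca
miR-431-3p: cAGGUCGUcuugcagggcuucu
miR-127-3p: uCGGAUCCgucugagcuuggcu
miR-434-3p: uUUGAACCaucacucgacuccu
miR-136-5p: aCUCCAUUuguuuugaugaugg
miR-370-3p: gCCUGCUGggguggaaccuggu
No seed is shared: the 25 member rows with at least 50 counts per library on average, 4 minus-strand rows included, carry 25 different seeds. Among all RefSeq mouse miRNAs the seed of miR-540-3p is also that of miR-6915-5p, the seed of miR-673-5p that of miR-6985-3p, and the seed of miR-370-5p that of miR-1193-3p. The miR-540 and miR-431 hairpins are shown whole, since the results turn on their arms, which are in capitals.
Mir540: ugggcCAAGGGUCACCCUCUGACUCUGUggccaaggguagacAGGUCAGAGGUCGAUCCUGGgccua
Mir431: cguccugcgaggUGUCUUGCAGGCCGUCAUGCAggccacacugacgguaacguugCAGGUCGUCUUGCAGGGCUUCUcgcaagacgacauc
Mir540 lies at chr12:109586080-109586146 and Mir431 at chr12:109590447-109590537, both on the plus strand.

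The members' own counts summed to 282361, 310005 and 308142 in the WT libraries (replicates 1 to 3 in order, as in all lists of 3 values that follow). They summed to 190072, 230054 and 217437 in the Dicer1-ifKO libraries. Levels are given as CPM, counts scaled to a common total of summed feature counts after TMM normalization. Overlapping features can hold one read more than once, and for that reason the totals do not give sequencing depth. Neuronal miRNAs fixed as markers of the tissue (miR-124-3p, miR-9-5p, miR-128-3p, miR-132-3p, miR-138-5p and miR-137-3p) were all present and summed to 3129 to 4027 CPM in WT and 2616 to 3305 CPM in Dicer1-ifKO. All markers of microglia and leukocytes, vessels, oligodendrocytes, erythrocytes and choroid plexus had counts too. Summed levels did not overlap for microglia and leukocytes (162 to 199 CPM in WT, 199.9 to 226 in Dicer1-ifKO) and for choroid plexus (319 to 342 against 217 to 236). Of the marker rows 0 were called (edgeR; 4 of 28 at an unadjusted p of 0.05). At that p, 165 of 520 tested miRNA places were lower and 10 higher, and 423 of 6539 tested features were lower and 88 higher. The part of the marked cell types in the results on the members was not tested.

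Of the 34 places, 24 had enough counts to be tested, and 7 of them fell in Dicer1-ifKO hippocampus while 0 rose. The 7 were miR-770-3p, miR-673-5p, miR-540-3p, miR-665-3p, miR-431-5p, miR-127-3p and miR-370-3p (adjusted p under 0.05 in edgeR's quasi-likelihood test, with Benjamini-Hochberg adjustment across the 6539 features tested). That is 29.2% of the tested places, where 6.73% of all tested miRNA places, 5.65% of those outside the members and 0.795% of all tested features were called lower. Of all tested features 0.0153% were called higher. At an unadjusted p of 0.05, 17 of the 24 members were lower and 1 higher, against 165 lower and 10 higher of 520 tested miRNA places and 423 lower and 88 higher of 6539 tested features. The median log2 change was -0.59, and 22 of 24 members lay below 0. Over all tested miRNA places the median was -0.25 and 76.2% lay below 0. Over all tested features the median was -0.05 and 56.8% lay below 0. In 18 of the 24 the 3 Dicer1-ifKO libraries all lay below the 3 WT libraries, which held for 34.6% of tested miRNA places, 32.7% of those outside the members and 9.27% of tested features. The groups were apart in the other direction in 0 members, against 1.92% of tested miRNA places and 3.73% of tested features. In the Mirg part of the same domain, downstream, 6 of 47 tested places were called lower, 45 of 47 lay below 0 and the median was -0.40. The difference between these lists was not tested.

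The count of members called rested on single libraries, and so did the count over all miRNA places, 35 with all libraries. Without Dicer1-ifKO replicate 2, 0 members were called lower (12 at an unadjusted p of 0.05, edgeR), and 1 of all miRNA places. Without WT replicate 2, WT replicate 3 or Dicer1-ifKO replicate 3, miR-431-5p was the only member called. Of all miRNA places 11, 12 and 7 were called lower in these fits. Without Dicer1-ifKO replicate 1, 5 members and 18 of all miRNA places were called lower. Without WT replicate 1 these counts were 10 and 69, and miR-673-3p, miR-431-3p and miR-433-3p passed as well. With normalization on miRNA rows, which moved the median of all features from -0.05 to 0.19, 1 member was called and 19 of 24 lay below 0. In that setting 7 of all miRNA places were called lower. The median log2 change there was -0.005 over all miRNA places and -0.35 in members.

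**Figure D1:**
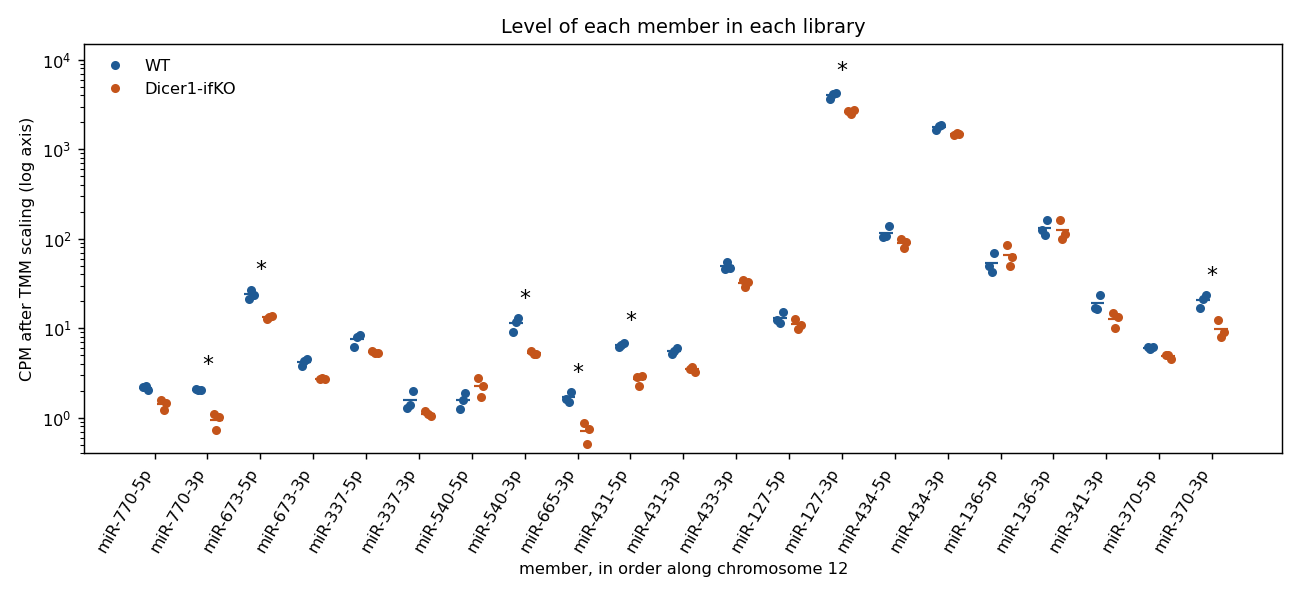
Levels of the 21 members with a mean of at least 50 counts, as CPM on a log axis, in each of the 3 WT and 3 Dicer1-ifKO libraries (points), with the group mean as a bar and an asterisk over the 7 members called lower. miR-127-3p and miR-434-3p stand far above the rest, and the groups are apart at each asterisk.

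The hairpin of miR-770 lies inside Meg3, where 4 GENCODE M21 transcripts span it and 1 annotated Meg3 exon overlaps it. Its 3p arm stood at 2.08, 2.03 and 2.07 CPM in WT and at 1.11, 0.73 and 1.02 CPM in Dicer1-ifKO. The groups were well apart, and miR-770-3p fell (log2 -1.11 ± 0.20 SE, n = 3 each, edgeR adjusted p = 0.023). The 5p arm stood at 2.20, 2.28 and 2.02 CPM against 1.57, 1.22 and 1.45 CPM. These groups did not overlap either, but miR-770-5p did not pass (log2 -0.62 ± 0.18 SE, edgeR adjusted p = 0.20). The Meg3 span as a whole had 293 to 323 counts across WT libraries and 191 to 240 across Dicer1-ifKO libraries. After the miR-770 counts were taken away, 113, 103 and 103 counts remained in WT and 85, 87 and 124 in Dicer1-ifKO, and these overlap.

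Between Meg3 and Rtl1 lie 7 hairpins without an annotated host among the genes considered, and 3 of their 8 tested places fell. miR-673-5p, just beyond the end of Meg3, stood at 21.5, 27.0 and 23.7 CPM in WT and at 12.7, 13.3 and 13.8 CPM in Dicer1-ifKO. All Dicer1-ifKO libraries lay near a common level well below WT (log2 -0.86 ± 0.16 SE, n = 3 each, edgeR adjusted p = 0.023). Its opposite arm, miR-673-3p, stood at 3.75, 4.32 and 4.47 CPM in WT and at 2.70, 2.80 and 2.70 CPM in Dicer1-ifKO, without overlap, and did not pass (edgeR adjusted p = 0.16).

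The arms of the miR-540 hairpin went apart. miR-540-3p, the major arm in WT, stood at 9.12, 11.7 and 13.1 CPM in WT and at 5.61, 5.14 and 5.19 CPM in Dicer1-ifKO, a fall of every Dicer1-ifKO library below all of WT (log2 -1.09 ± 0.18 SE, n = 3 each, edgeR adjusted p = 0.015). miR-540-5p stood at 1.27, 1.57 and 1.87 CPM in WT and at 2.75, 1.69 and 2.28 CPM in Dicer1-ifKO. Its groups overlap, since Dicer1-ifKO replicate 2 lies between WT replicates 2 and 3. With a log2 change of 0.51 ± 0.22 (SE) it did not pass over all features (edgeR adjusted p = 0.59), and in a fit of the miRNA rows alone it was called higher (log2 0.75, edgeR adjusted p = 0.030). In that fit 11 miRNA places were called higher, against 0 in the fit over all features.

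The adjacent miR-665-3p was scarce, with 79, 71 and 91 counts in WT and 36, 27 and 35 in Dicer1-ifKO, and it fell (log2 -1.26 ± 0.24 SE, n = 3 each, edgeR adjusted p = 0.026). Its 5p arm had 0 or 1 count in each library. The place of miR-337-5p stood at 6.22, 7.96 and 8.35 CPM in WT and at 5.59, 5.31 and 5.28 CPM in Dicer1-ifKO, and that of miR-337-3p at 1.29, 1.40 and 2.00 CPM against 1.18, 1.11 and 1.04 CPM. Both pairs of groups were apart, and neither member passed (edgeR adjusted p = 0.39 and 0.59). The opposite-strand rows miR-3544-3p and miR-3544-5p held the same counts in all 6 libraries, 1837 and 380 in all, so the reads cannot be assigned to a strand. miR-493-5p, with 7 to 37 counts, did not pass (edgeR adjusted p = 0.93). The remaining places of this stretch, miR-493-3p and the miR-3070a and miR-3070b arms, had too few counts to be tested.

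The anti-Rtl1 hairpins overlap the exon of Rtl1 on the opposite strand and held nearly all counts of the region. Counts over the Rtl1 span came to 277960, 305013 and 302828 for WT and to 187279, 227081 and 214577 for Dicer1-ifKO, of which the miRNA places on it account for all but 12 to 32 in each library. No level of Rtl1 mRNA can be read from that span. Of 10 tested places here, 2 fell.

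miR-431-5p, from the first of these hairpins along the plus strand, fell. It stood at 6.10, 6.54 and 6.93 CPM in WT and at 2.87, 2.29 and 2.89 CPM in Dicer1-ifKO, with no Dicer1-ifKO library near a WT level (log2 -1.28 ± 0.18 SE, n = 3 each, edgeR adjusted p = 0.0047). The call was lost without Dicer1-ifKO replicate 2 (edgeR adjusted p = 0.17) and held without any other library. miR-431-3p stood at 5.16, 5.56 and 5.96 CPM in WT and at 3.52, 3.72 and 3.28 CPM in Dicer1-ifKO. These groups were apart as well, although miR-431-3p did not pass (log2 -0.67 ± 0.17 SE, edgeR adjusted p = 0.11).

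miR-127-3p, the most abundant member, stood at 3681, 4188 and 4216 CPM in WT and at 2666, 2472 and 2754 CPM in Dicer1-ifKO. The groups did not overlap and the member fell (log2 -0.61 ± 0.12 SE, n = 3 each, edgeR adjusted p = 0.033). Of 11 other scalings, filters, tests and designs, 2 kept that call (library totals alone and the stricter count filter), and DESeq2 gave an adjusted p of 0.085. Of the fits that left out 1 library, that without WT replicate 1 kept it. The 5p arm stood at 12.3, 11.6 and 15.2 CPM in WT and at 12.5, 9.82 and 10.8 CPM in Dicer1-ifKO, with overlapping groups (log2 -0.24 ± 0.17 SE, edgeR adjusted p = 0.90).

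miR-434-3p, the second most abundant member, stood at 1642, 1839 and 1849 CPM in WT and at 1445, 1516 and 1492 CPM in Dicer1-ifKO. All Dicer1-ifKO libraries lay below WT, by a margin that did not pass (log2 -0.26 ± 0.12 SE, n = 3 each, edgeR adjusted p = 0.63). miR-434-5p stood at 104, 108 and 139 CPM against 98.8, 78.8 and 92.7 CPM, and miR-433-3p at 45.5, 55.3 and 46.5 CPM against 34.9, 28.6 and 33.1 CPM. Neither pair of groups overlapped and neither member passed (edgeR adjusted p = 0.55 and 0.13). miR-433-5p averaged 39.7 counts per library and did not pass either.

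The place of miR-136, at the end of the anti-Rtl1 group, held 2 arms that did not pass. miR-136-5p stood at 49.91, 42.4 and 69.17 CPM in WT and at 85.09, 50.03 and 62.53 CPM in Dicer1-ifKO, and miR-136-3p at 124.1, 111.5 and 163.8 CPM against 159.9, 100.5 and 114.1 CPM. The groups of both arms overlap widely, and the log2 changes were 0.29 ± 0.23 and -0.09 ± 0.20 (SE, n = 3 each, edgeR adjusted p = 0.91 and 0.99). The sign for miR-136-3p turned to 0.15 with normalization on miRNA rows. The minus-strand rows miR-3071-3p and miR-3071-5p lie over the same place and held 16849 and 36375 counts against 16830 and 36388, within 7 counts in every library. miR-432, in the same group, had 0 counts.

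Inside Rian, in an intron, miR-370-3p fell and the other tested places did not pass. miR-370-3p stood at 16.8, 21.2 and 23.8 CPM in WT and at 12.2, 8.02 and 9.0 CPM in Dicer1-ifKO, a clear separation with wider spread than at miR-431-5p (log2 -1.08 ± 0.20 SE, n = 3 each, edgeR adjusted p = 0.023). miR-370-5p stood at 6.18, 5.81 and 6.24 CPM against 5.01, 5.01 and 4.58 CPM, groups that do not overlap (log2 -0.32 ± 0.16 SE, edgeR adjusted p = 0.71). miR-341-3p stood at 16.9, 16.5 and 23.7 CPM against 14.8, 10.1 and 13.2 CPM, apart by a small margin (edgeR adjusted p = 0.30). miR-341-5p, with 25 to 38 counts, had overlapping groups and a log2 change of -0.19 that turned to 0.06 with normalization on miRNA rows. The arms of miR-1188 had 0 to 3 counts and were not tested, and miR-882, beyond Rian, had 0.

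**Figure D2:**
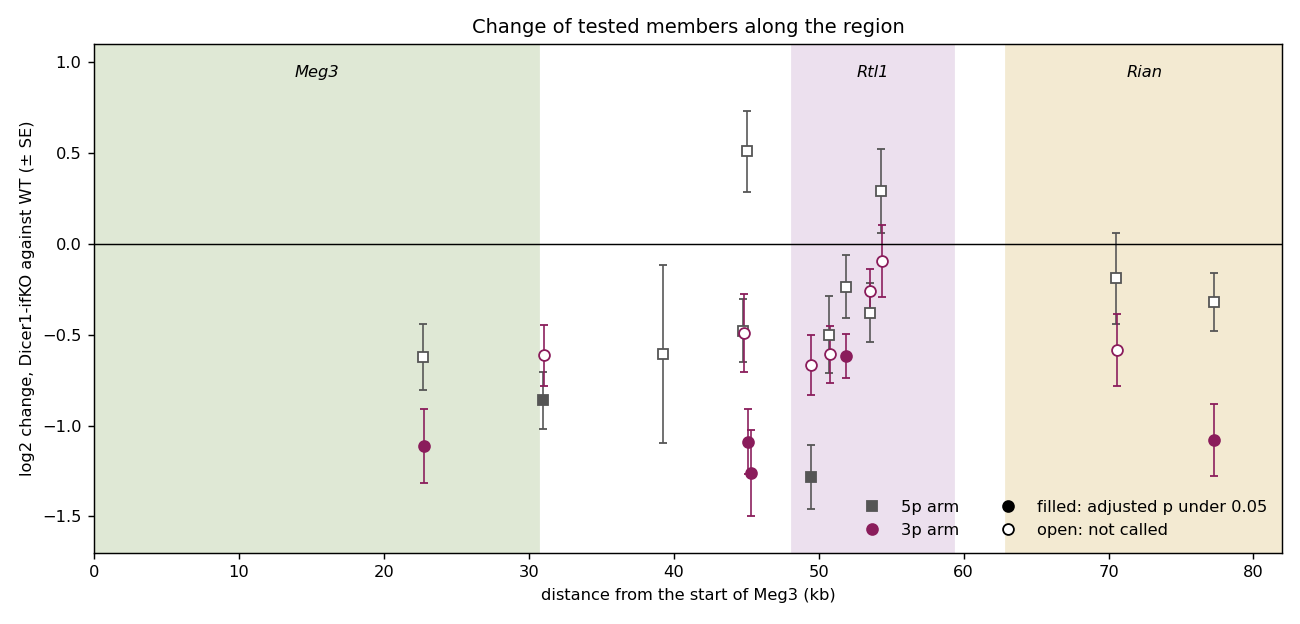
Log2 change (Dicer1-ifKO against WT, ± SE, n = 3 each) of the 24 tested members against distance from the start of Meg3 in kb, with squares for 5p arms, circles for 3p arms, filled symbols for called members and shading for the spans of Meg3, Rtl1 and Rian, the last of which runs past the right edge. Called members lie along the whole stretch, and miR-540-5p and miR-136-5p are the members above 0.

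By arm, 5 of the 12 tested 3p places and 2 of the 12 tested 5p places were called lower. The median log2 changes were -0.61 for 3p arms and -0.43 for 5p arms. The same split was not made over all miRNA places, so these values do not show an arm difference particular to the members. To compare the arms without any scaling between libraries, the log2 ratio of 5p to 3p counts was taken for each hairpin (pseudocount of 0.5, at least 10 counts on average in each arm). This gave 11 member hairpins out of 138 over the genome. The 3 WT and 3 Dicer1-ifKO values did not overlap in 8 of the 11, toward the 5p arm in 6 and toward the 3p arm in 2. Over all hairpins 31.2% were apart, 19.6% toward the 5p arm and 11.6% toward the 3p arm. An exact permutation test of 3 against 3 libraries cannot give a p below 0.1, which these 8 hairpins reached (two-sided, 0.32 after Benjamini-Hochberg over the 138 hairpins).

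The miR-540 hairpin had the second largest difference in arm ratio among the 138. Its 5p arm held 62, 75 and 87 counts in WT and 114, 90 and 107 in Dicer1-ifKO, and its 3p arm 447, 561 and 607 counts against 233, 274 and 244. The 5p arm thus made up 12.2% (95% Wilson interval 9.62 to 15.3), 11.8% (9.51 to 14.5) and 12.5% (10.3 to 15.2) of the hairpin's counts in WT. In Dicer1-ifKO it made up 32.9% (28.1 to 38.0), 24.7% (20.6 to 29.4) and 30.5% (25.9 to 35.5). These intervals cover counting error only, and none of those of one genotype meets one of the other. The log2 ratio went from -2.84 ± 0.05 to -1.27 ± 0.30 (SD, n = 3 each), a difference of 1.57. In a limma fit over the ratios of all 138 hairpins, chosen after the data were seen, miR-540 was called (1.57 ± 0.20 SE, adjusted p = 0.0088), and 2.17% of hairpins were called in its direction. That call was lost without WT replicate 2 (limma adjusted p = 0.056) and held without any other library and with the replicate number as a block.

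Among the other member hairpins limma called 0. An unadjusted limma p under 0.05 was found at miR-370, miR-770, miR-341, miR-136 and miR-431. The share of all 138 hairpins under 0.05 was not counted, so these p-values do not set the members apart from other hairpins. The ratio moved toward the 5p arm by 0.76 ± 0.23 at miR-370, 0.50 ± 0.17 at miR-770, 0.41 ± 0.16 at miR-341, 0.39 ± 0.16 at miR-136 and 0.38 ± 0.19 at miR-127 (log2, SE, n = 3 each; limma adjusted p from 0.13 to 0.27). At miR-431, where both arms were about equally abundant, it moved the other way, from 0.23 ± 0.01 to -0.39 ± 0.27 (SD, n = 3 each; limma adjusted p = 0.13). In WT all 3 libraries had more 5p than 3p counts there, and in Dicer1-ifKO all 3 had fewer. At miR-136 the ratio stood at -1.31, -1.39 and -1.24 in WT and at -0.91, -1.01 and -0.87 in Dicer1-ifKO, groups that are apart although the levels of both arms overlap. At miR-673 the change was -0.25 ± 0.16 (log2, SE, n = 3 each; limma adjusted p = 0.43), toward the 3p arm, with groups apart. At miR-433, miR-434 and miR-337 the ratios overlapped.

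**Figure D3:**
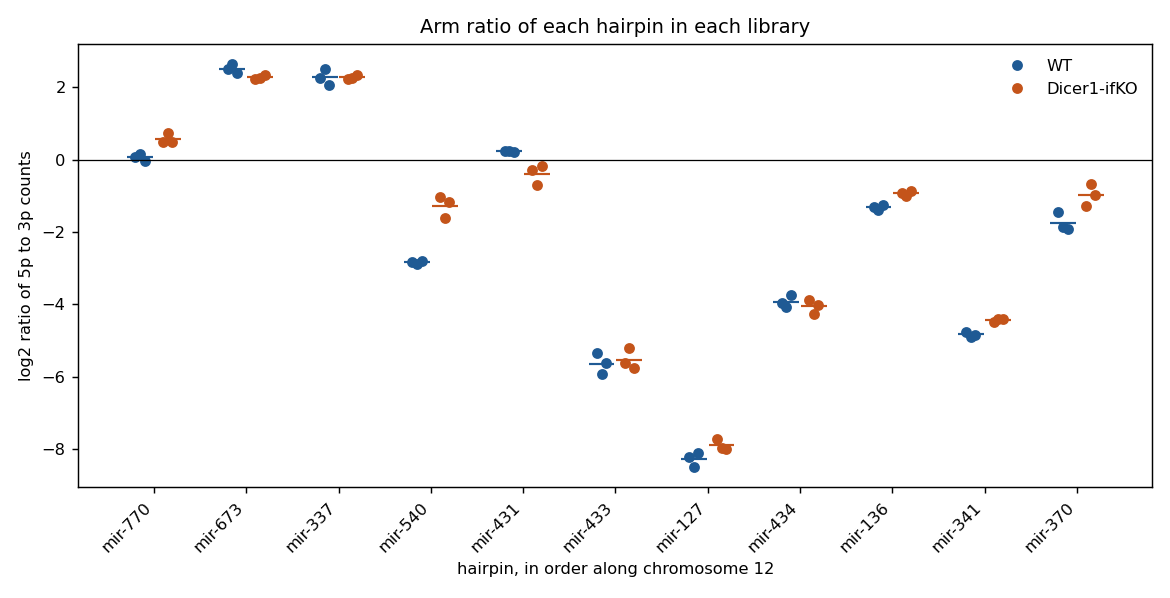
Log2 ratio of 5p to 3p counts of the 11 member hairpins with both arms counted, in each WT and Dicer1-ifKO library (points), with group means as bars. The miR-540 values lie from -2.90 to -2.80 in WT and from -1.60 to -1.03 in Dicer1-ifKO, and the miR-431 values lie on opposite sides of 0.

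Members took 10.5%, 10.9% and 9.86% of all miRNA counts in WT and 8.38%, 8.55% and 9.28% in Dicer1-ifKO, with no overlap. Most of that was miR-127-3p, which made up 64.1% ± 0.56 (SD, n = 3) of the members' counts in WT and 58.3% ± 1.14 (SD, n = 3) in Dicer1-ifKO. With miR-127-3p left out of both sums, the members' share was 4.08%, 4.14% and 3.83% against 3.68%, 3.84% and 3.98%, and the groups overlapped. The counts of miR-127-3p were 2.24, 2.28 and 2.28 times those of miR-434-3p in WT and 1.85, 1.63 and 1.85 times in Dicer1-ifKO. Both hairpins lie on the anti-Rtl1 strand. The log2 ratio of miR-127-3p to miR-434-3p fell by 0.36 (two-sided exact permutation p = 0.1, the smallest that 3 against 3 allows), and the cause was not tested. Against the same miR-434-3p, miR-433-3p fell by 0.35 and miR-431-5p by 1.03 on the log2 scale, both without overlap (exact permutation p = 0.1). miR-136-5p and miR-136-3p had differences of 0.55 and 0.16 with overlapping groups (exact permutation p = 0.2 and 0.6). These ratios share miR-434-3p and were chosen after the data were seen. Other pairs of miRNAs were not compared, so the share of pairs without overlap is not known.

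Log2 changes of the members varied with their base composition. Across the 24 tested members, which share libraries and are not independent, Spearman's rho between log2 change and GC content of the mature sequence was -0.55, and over 463 tested miRNA places with a sequence it was -0.30. GC content ran from 36.4% (miR-136-5p and miR-136-3p) to 76.2% (miR-341-5p), and its median was 56.8% in members and 47.8% in other tested miRNA places. From mean log2 CPM (pseudocount of 0.5), rho was -0.52 in members and -0.26 over all miRNA places. Without WT replicate 2 and Dicer1-ifKO replicate 1 these values were -0.52 and -0.014. No other pair of libraries was left out, so these values do not show which libraries the trend rests on. With the GC trend of the miRNA rows removed in each library, miR-673-5p, miR-540-3p and miR-431-5p were called (edgeR adjusted p = 0.033, 0.023 and 0.0083) and miR-770-3p, miR-665-3p, miR-127-3p and miR-370-3p were not (0.064, 0.063, 0.076 and 0.091). The log2 changes of these 4 were then -0.98, -1.15, -0.525 and -0.95, against -1.11, -1.26, -0.61 and -1.08 before.

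**Figure D4:**
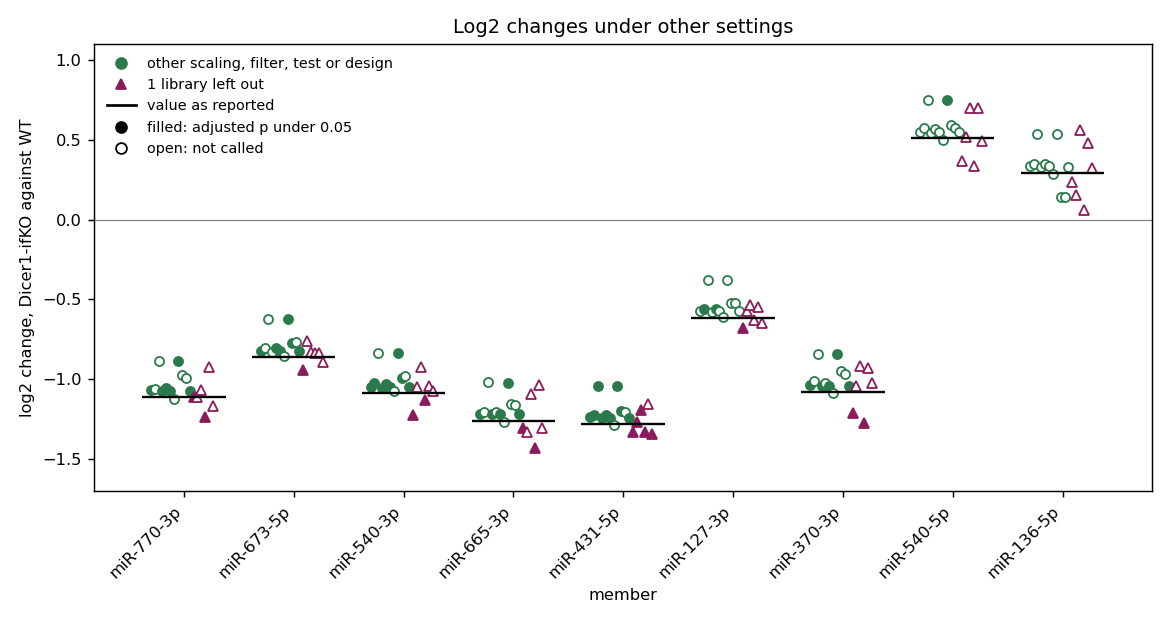
Log2 change of the 7 called members and of miR-540-5p and miR-136-5p under other scalings, filters, tests and designs (circles) and with 1 library left out (triangles), beside the value as reported (bar), with filled symbols where the adjusted p was under 0.05. The direction held for each of these 9 members under the settings plotted, and miR-431-5p kept its call most often.

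The spans of Meg3 and Rtl1, which include the counts of the members on them, did not pass (log2 -0.53 ± 0.18 and -0.48 ± 0.12, SE, n = 3 each, edgeR adjusted p = 0.31 and 0.10). Dlk1 and Dio3 spans held 0 or 1 count in each library, and no feature named Rian or Mirg was found. Of 13 spans of processing genes (Drosha, Dgcr8, Xpo5, Dicer1, Tarbp2, Prkra, the 4 Argonaute genes and the 3 Tnrc6 genes), 5 were tested and 0 passed (edgeR; 0 at an unadjusted p of 0.05). Dicer1 held 45, 33 and 47 counts in WT and 37, 32 and 35 in Dicer1-ifKO, and these fragments do not resolve a floxed exon.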

How the data were processed

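Per the labels, TruSeq small RNA libraries of pooled hippocampal RNA were sequenced on an Illumina HiSeq instrument. The deposited raw count column holds whole-number counts per feature. The normalized signal column is the authors' raw count times 1 constant per library and was used for 1 alternative scaling. BWA, SAMtools 0.1.18, CASAVA 1.8.2, DESeq2 and the build GRCm38 (mm10) appear in the submitters' processing notes, where no role is attached to any of them. The counter, its strand setting and its handling of reads with several alignments were not given in the sources used here.

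Rows of a gene with equal counts in all libraries were counted once, leaving 45378162 (WT replicate 1) to 52649586 (WT replicate 2) summed counts in WT and 39391709 (Dicer1-ifKO replicate 1) to 54628967 (Dicer1-ifKO replicate 2) in Dicer1-ifKO. edgeR 4.0.16 in R 4.3.3 was fitted to all features (filterByExpr by group, minimum count 10, TMM, robust glmQLFit, glmQLFTest, two-sided, Benjamini-Hochberg over 6539 features, threshold 0.05). The standard error was derived from the F statistic. The fit was run on simulated counts with equal numbers of rises and falls, so a one-sided shift of miRNAs was not simulated. Arm ratios were compared by exact permutation and with limma 3.58.1, and DESeq2 1.42.0 was an alternative. Of 38 member rows, 36 matched RefSeq mature sequences by position and miR-337-5p and miR-337-3p by name, their coordinates differing by a few bases. Gene spans and exons are those of GENCODE M21 (GRCm38). Of tested miRNA rows, 485 of 546 had a sequence for GC content (loess, span 0.75). Members with at least 50 counts per library on average, or called, were described by library, others by range. Members, lists and named features were chosen with earlier results of these data known. Over the members, every pair of same-genotype libraries differed beyond counting noise (chi-square at least 288 on 23 degrees of freedom), so none was treated as a repeat.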

Additional observations from a re-analysis of the deposited data

How the results depend on the processing

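In the fits reported, 7 members were lower, 0 were higher and the median log2 change was -0.59. On library totals alone 3 members were lower (15 of all miRNA places, against 35 in the fits reported). With normalization on miRNA rows 1 member was lower (7 of all miRNA places), and with the GC trend removed 3 (26 of all miRNA places). In the fit of the miRNA rows alone 6 were lower and 1 higher (miR-540-5p, among 11 miRNA places called higher there and 35 called lower), and the median was -0.35, as with normalization on miRNA rows. With 1 library left out, 0 to 10 members were lower (1 to 69 of all miRNA places) and the members' median ran from -0.64 to -0.44. With the replicate number as a block 0 members were lower, and also 0 with the GC trend removed (edgeR; 15 and 14 lower at an unadjusted p of 0.05; 6 by DESeq2 without a block). Over all miRNA places 3 and 2 were lower in these block fits. The labels name no pairing by replicate number. Over miRNA rows, deviations of same-numbered libraries correlated at -0.06, 0.34 and -0.30, and those of differently numbered libraries at -0.44 to 0.48. With so few libraries these values do not decide whether the numbers pair them. Turned signs, in members and ratios that were not called, were those of miR-127-5p (0.0066 with normalization on miRNA rows and 0.0064 in the fit of those rows alone), miR-136-3p (0.15 in both, and -0.31 to 0.13 with 1 library left out, above 0 without WT replicate 3 and, at 0.063, without Dicer1-ifKO replicate 2) and miR-341-5p (0.061 and 0.058, and 0.040 without WT replicate 3). Likewise the arm ratio of miR-337, which ran from -0.11 to 0.11, turned to 0.11 without WT replicate 2, 0.017 without Dicer1-ifKO replicate 1 and 0.0064 without Dicer1-ifKO replicate 2, and that of miR-433, which ran from -0.056 to 0.25, to -0.034 without WT replicate 2 and -0.056 without Dicer1-ifKO replicate 2. The difference in the members' share of miRNA counts, -1.69 percentage points, ran from -1.98 to -1.46 with 1 library left out, was -0.18 without miR-127-3p and -0.11 with all feature counts as the denominator. The last is on a smaller scale, a share of 0.437% in WT and 0.325% in Dicer1-ifKO, again without overlap. The cause of these shifts was not tested. The other scalings, filters and tests left 5 to 7 members lower, and 23 to 35 of all miRNA places. The 10 member places not tested had a mean of at most 2.83 counts per library. Without a filter 32 places were fitted, and the 5 called lower were all among the 7.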
